A study of Homo sapiens with 12 samples.

Results

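The MYC, MAX and MXD network was followed through 4 h of transcription arrest in shA673-1c Ewing sarcoma cells. Its 10 members, MYC, MYCN, MAX, MXD1, MXD3, MXD4, MXI1, MNT, MLX and MGA, were taken by gene symbol from a count table of 26334 symbols, and all 10 were present. The symbols are those of the known network and no value entered the rule, but earlier results of these data were known when it was written. The cells had received 5 µM actinomycin D, which blocks transcription by binding DNA, and were collected after 0, 1, 2 and 4 h. There were 3 biological replicates at each of the 4 time points, giving 12 libraries of poly(A) RNA prepared with a strand-specific kit, and the series was made to obtain RNA half-lives. All 4 groups were the same line, a clone of A673 that carries an inducible short hairpin RNA against the Ewing sarcoma fusion gene, and all grew in medium with blasticidin and zeocin. The labels name no inducer and no vehicle-treated series, so the 0 h libraries were the only reference, and time in culture cannot be told apart from time in the drug.

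MAX is the shared partner of this family of basic helix-loop-helix leucine zipper transcription factors. MYC and MYCN pair with MAX at E-box DNA and activate growth genes, whereas the MXD proteins, MXI1 (also called MXD2), MNT and MGA pair with the same MAX and repress such genes. MLX is a second, parallel partner that pairs with some MXD proteins and MNT, and separately with the nutrient-sensing Mondo factors. MYC mRNA is a textbook example of a short-lived transcript, so that its level soon falls when synthesis stops.

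The libraries held 9147018 to 11194705 counts each, and the test covered the 12032 genes that averaged 10 counts or more. Counts were scaled to CPM, which sets every library to the same total, with TMM factors, which take the bulk of transcripts as the reference. All changes are therefore relative to that reference: the median slope of the 12032 tested genes was 0.0093 log2 per hour with TMM, -0.030 with library totals and -0.13 when libraries were scaled to GAPDH plus ACTB. A gene that rose was thus lost more slowly than the reference, or still made. Of 8 Ewing sarcoma markers, 6 passed the count filter, from LIPI at 128.5 ± 15.2 CPM to NKX2-2 at 7.08 ± 0.795 CPM at 0 h (SD, n = 3). CCK was under the filter with a mean of 7.08 counts, and CD99, a defining surface marker of this tumour, was listed at 0 in all libraries, and whether the cells lacked it or its reads were not counted cannot be told apart from this table. Of 7 markers of blood, endothelial, epithelial and muscle cells, MYOD1 was at 0 throughout and 5 had means of at most 3.33 counts. DES had a mean of 16.4 counts and levels of 1.15 ± 0.616 CPM at 0 h and 2.02 ± 0.928 CPM at 4 h (edgeR, adjusted p = 0.176, or 0.0219 with the replicate number as a block), and its part in the members' values was not tested.

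MYC, MGA, MNT, MLX and MXD1 fell over the 4 h, whereas MAX, MXI1, MXD3 and MXD4 did not pass the test in either direction. Whether a member was lost faster than other transcripts was asked with 1 rate per gene. A straight line in time was fitted for each gene with edgeR's quasi-likelihood method, and p-values were adjusted over all tested genes by the Benjamini-Hochberg method. Of the 10 members 9 were tested, of which 5 fell, 0 rose and 4 were not called at an adjusted p below 0.05. Among all tested genes 32.1% fell and 30.7% rose. The median slope of the 9 members was -0.17 log2 per hour, against 0.0093 for all genes. MYCN, with a mean of 4.33 counts, was under the filter.

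**Figure D1:**
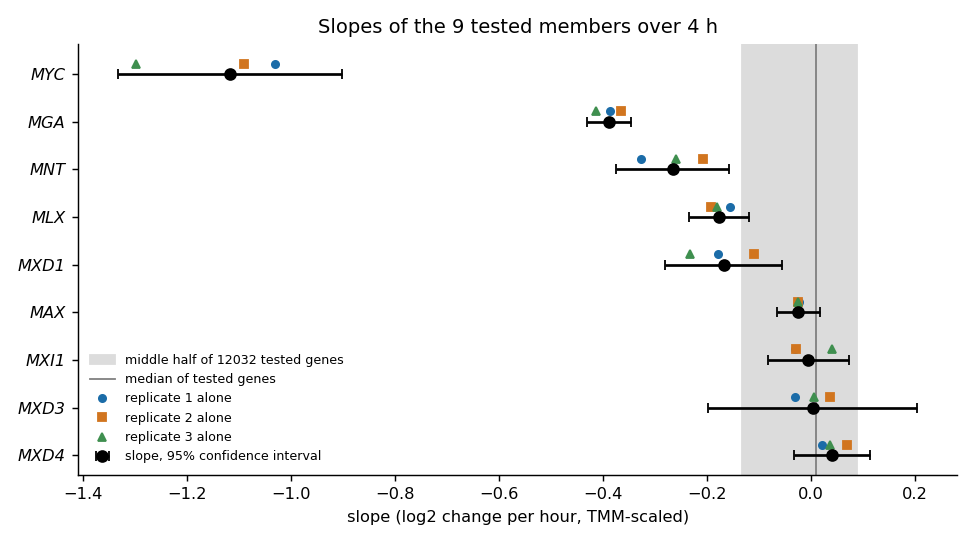
Slope of each of the 9 tested members in log2 change per hour (x axis), as the fit to all 12 libraries with its 95% confidence interval (black) and as each replicate fitted alone (coloured). MYC sat far to the left at -1.12, the other 4 falling members lay between -0.39 and -0.17, and MAX, MXI1, MXD3 and MXD4 lay inside the grey band that holds the central tested genes, from -0.13 to 0.089.

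Sequence features that often mark unstable transcripts were read from the annotated 3′ untranslated regions (UTRs). The canonical transcripts of GENCODE 44 on GRCh38 were used, whereas the submitters' processing notes name hg19, so the annotated ends may differ from those counted. The letters ATTTA, the core of AU-rich elements, occurred 6 times in the 1993-base 3′ UTR of MYC, 10 times in that of MXD1 (4661 bases), 4 times each in MXI1 and MGA, 3 times in MAX, and 2 times each in MYCN and MLX. They occurred 0 times in MXD3, MXD4 and MNT. Of 10819 tested genes with a 3′ UTR, 75.1% held ATTTA. Among genes with a 3′ UTR of similar length to that of MXD4 (3112 bases) the share was 96.6%, and for MNT (2828 bases) it was 96.2%. For MXD1, MYC and MXD3 (378 bases) it was 99.0%, 90.6% and 45.0%. Per kilobase of 3′ UTR, ATTTA occurred 3.01 times in MYC and 2.145 times in MXD1, against 2.31 over these tested genes. Over all genes the median slope was -0.012 with ATTTA and 0.078 without it. The longer AU-rich letters TTATTTATT, present in 10.1% of genes (median slope -0.049, against 0.014 without them), were in no member. Among the members, MNT fell and held no ATTTA, and MAX and MXI1 held it and were not called.

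The Pumilio letters TGTANATA, where N is any base, were searched on the transcript strand and were in the 3′ UTR of 31.7% of tested genes. They were in MYC, MYCN, MAX, MXD1 and MGA (2 each) and in MNT (1), and in none of MXD3, MXD4, MXI1 and MLX. Among genes with a 3′ UTR of similar length the share was 58.6% for MXD1, 45.2% for MNT, 44.4% for MGA, 36.2% for MYC and 28.3% for MAX. Over all genes the median slope was -0.055 for those that held the letters and 0.038 for the others. The windows of 30 bases around them are shown for MAX, MXD1, MNT and MGA, because the same letters were in members that fell and in MAX. The transcripts run on GRCh38 from 2384073 to 2401060 on chromosome 17 for MNT (minus strand), from 41660405 to 41769940 on chromosome 15 for MGA (plus strand), from 69915109 to 69942945 on chromosome 2 for MXD1 (plus strand) and from 65075127 to 65102517 on chromosome 14 for MAX (minus strand). The match is in capitals, the strand is that of the transcript, and the first base of each window is counted from the start of the 3′ UTR.
MNT, chromosome 17, from base 2669: aaccctaatttTGTACATActgtattttta
MGA, chromosome 15, from base 1202: cctatctagttTGTAAATAatcatggtgca
MGA, chromosome 15, from base 2456: ttttatacatcTGTAAATAaatggaatgtt
MXD1, chromosome 2, from base 1192: gcacatgtataTGTACATAagacacattaa
MXD1, chromosome 2, from base 4473: atgtttctttaTGTAAATAtgacgccaatg
MAX, chromosome 14, from base 970: ctgattttgtaTGTAAATAccaagagcaat
MAX, chromosome 14, from base 1255: aaaaagtatgtTGTACATActgccgaagaa
The 8 letters TGTACATA were in MNT, MXD1 and MAX alike, and TGTAAATA in MGA, MXD1 and MAX. A match is a description of the letters, and binding was not measured.

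MYC, the activator from which the network takes its name, fell furthest of the 9 tested members. In replicates 1, 2 and 3 its levels were 139, 143 and 121 CPM at 0 h, 80.7, 83.9 and 61.6 CPM at 1 h, 17.9, 16.0 and 9.87 CPM at 2 h, and 10.5, 9.29 and 5.27 CPM at 4 h. The groups at 0, 1 and 2 h did not overlap, those at 2 and 4 h did, and replicate 3 was the lowest at every time. Of the 0 h level, 56.0% was left at 1 h, 10.8% at 2 h and 6.22% at 4 h. The fall from 0 to 4 h was 16.04-fold (log2 -4.0035, standard error 0.22, adjusted p = 2.92e-09, edgeR). The slope ranked 27 from the steepest fall among 12032 genes, and its half-life, -1 divided by the slope, was 0.895 h (95% confidence interval 0.751 to 1.11 h). This half-life assumes a loss along a straight line, from which MYC departed (adjusted p = 0.00578, edgeR). Each replicate fitted alone gave a slope below 0, at -1.03, -1.09 and -1.30. MYC overlaps CASC11 on the other strand, and whether counting used the strand is not stated in the sources used here.

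The loss of MYC was uneven over time. It was lower by 0.84 on the log2 scale at 1 h than at 0 h (log2 -0.84, standard error 0.17, adjusted p = 0.0157, edgeR), and at 2 h it was lower than at 1 h by 5.17-fold (log2 -2.37, standard error 0.20, adjusted p = 4.67e-06, edgeR). From 2 to 4 h the difference was -0.80 (standard error 0.25, adjusted p = 0.0265, edgeR), or -0.40 per hour. The departure from a straight line was past the threshold (adjusted p = 0.00578, edgeR). It was not past it without replicate 1 (adjusted p = 0.194) or without replicate 2 (adjusted p = 0.361). The same holds for the step from 0 to 1 h (adjusted p = 0.202 and 0.332) and for that from 2 to 4 h (adjusted p = 0.127 and 0.177), with log2 differences of -0.86 and -0.87 and of -0.81 and -0.82. With all replicates and the replicate number as a block, the departure passed the threshold (adjusted p = 9.51e-11, edgeR). So did these 2 steps (adjusted p = 9.28e-12 and 1.52e-05, edgeR). The 100 steepest slopes were picked in these same libraries and include MYC. Of these, 93 had a larger loss in the second hour than in the first, with median differences of -0.73 and -1.76. The median differences over all tested genes were -0.022 and 0.013. The share of all genes with a larger loss in the second hour was not counted. Of 2 immediate early genes, JUN had -0.97 and -1.92, whereas EGR1 had -1.14 and -1.08.

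MYCN, the paralogue active in neural tissue, had very few counts in these cells. Its counts in replicates 1, 2 and 3 were 9, 10 and 14 at 0 h, 3, 6 and 4 at 1 h, 2, 3 and 0 at 2 h, and 0, 0 and 1 at 4 h. The 0 h libraries were above all others. Summed over replicates, 33 counts at 0 h faced 1 count at 4 h, a ratio of 28.7 after scaling, with a 95% counting interval of 4.81 to 1169. Counting intervals cover counting error only. Without the count filter, edgeR gave a slope of -1.20 (adjusted p = 1.89e-05). MYCN shares its locus with the antisense gene MYCNOS, and whether counting used the strand is not stated in the sources used here.

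MAX, the partner that both activators and repressors need, stayed near its 0 h level relative to the reference. Its levels in replicates 1, 2 and 3 were 43.4, 48.6 and 43.3 CPM at 0 h, 44.8, 48.6 and 42.4 CPM at 1 h, 43.3, 47.9 and 42.4 CPM at 2 h, and 41.1, 45.5 and 40.3 CPM at 4 h. The ranges of all consecutive time points overlapped. The slope was -0.024 log2 per hour (95% confidence interval -0.065 to 0.017, adjusted p = 0.295, edgeR), and the replicates alone gave -0.024, -0.025 and -0.025. This call depended on the scaling, since MAX fell with library totals (slope -0.063, adjusted p = 0.00822) and with GAPDH plus ACTB (slope -0.16, adjusted p = 1.14e-05).

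Of the 4 MXD genes, which encode repressors, most of them induced as cells stop dividing and differentiate, MXD1 fell and the others did not pass the test. MXD1 levels in replicates 1, 2 and 3 were 5.90, 5.40 and 4.53 CPM at 0 h, 5.75, 3.83 and 4.18 CPM at 1 h, 3.48, 4.66 and 3.68 CPM at 2 h, and 3.91, 3.68 and 2.35 CPM at 4 h. Only the groups at 0 and 4 h were apart. The slope was -0.17 (standard error 0.053, adjusted p = 0.0112, edgeR), which corresponds to a half-life of 5.96 h (3.57 to 18.0 h), and 4 h was lower than 0 h by 1.58-fold (log2 -0.66, standard error 0.23, adjusted p = 0.0218, edgeR). That contrast lost its call without any 1 of the 3 replicates (adjusted p = 0.0598, 0.0794 and 0.0625, with log2 differences from -0.74 to -0.59), and the slope lost it with 0, 1 and 2 h only (adjusted p = 0.163) and with 1, 2 and 4 h only (adjusted p = 0.109). With all replicates and the replicate number as a block, the contrast and the slope passed the threshold (adjusted p = 0.00279 and 0.00336, edgeR).

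MXI1 (MXD2) ranged from 8.32 to 11.4 CPM over the 12 libraries, with means of 10.1 ± 0.899, 9.75 ± 0.966, 9.39 ± 1.59 and 9.94 ± 1.56 CPM at 0, 1, 2 and 4 h (SD, n = 3). Its slope was -0.0050 (95% confidence interval -0.083 to 0.073, adjusted p = 0.914, edgeR). MXD4 had means of 9.83 ± 1.16, 9.98 ± 1.60, 10.987 ± 0.969 and 10.9 ± 0.913 CPM and a slope of 0.041 (-0.032 to 0.11, adjusted p = 0.316, edgeR). All 4 time points of each gene overlapped. MXD3, which is linked to proliferating rather than resting cells, differed mainly between replicates: replicate 3 held 5.33, 4.90, 3.78 and 5.49 CPM at 0, 1, 2 and 4 h, whereas replicates 1 and 2 lay between 1.90 and 3.00 CPM at every time. The slope of MXD3 was 0.0033 with an interval from -0.20 to 0.20 (adjusted p = 0.977, edgeR), and its replicates alone gave -0.031, 0.036 and 0.0058. Scaled to GAPDH plus ACTB, the slopes were -0.14 for MXI1 (adjusted p = 0.00746), -0.13 for MXD3 (adjusted p = 0.270) and -0.097 for MXD4 (adjusted p = 0.0542).

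MNT, a broadly expressed repressor that opposes MYC at the same promoters, lost much of its level between 1 and 2 h and then held it. Its levels in replicates 1, 2 and 3 were 20.1, 14.9 and 21.4 CPM at 0 h, 15.6, 15.5 and 19.2 CPM at 1 h, 9.74, 8.71 and 10.5 CPM at 2 h, and 8.53, 9.20 and 11.3 CPM at 4 h. The libraries at 0 and 1 h lay above all those at 2 and 4 h, and within each of these pairs of times the groups overlapped. Of the 0 h level 89.3% was left at 1 h, 51.3% at 2 h and 51.6% at 4 h. The difference from 1 to 2 h was -0.80 (standard error 0.16, adjusted p = 0.00320, edgeR), and without replicate 1 it was -0.86 (adjusted p = 0.0515). From 2 to 4 h it was 0.0062 (standard error 0.17, adjusted p = 0.984, edgeR). The slope over all times was -0.27 (standard error 0.051, adjusted p = 0.000262, edgeR), and the half-life was 3.76 h (2.67 to 6.36 h). This half-life assumes a steady loss, whereas the levels left at 2 and 4 h were alike. The departure from a straight line missed the threshold (adjusted p = 0.144, edgeR), but passed it with the replicate number as a block (adjusted p = 0.00093).

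MGA, a very large protein that pairs with MAX and is part of a Polycomb repressor complex, fell at a steady rate. Its levels in replicates 1, 2 and 3 were 93.7, 79.8 and 89.8 CPM at 0 h, 67.9, 71.2 and 67.0 CPM at 1 h, 58.8, 53.7 and 49.5 CPM at 2 h, and 31.0, 29.8 and 28.6 CPM at 4 h. No pair of consecutive groups overlapped. The slope was -0.39 (standard error 0.020, adjusted p = 9.2e-10, edgeR) and the half-life 2.57 h (2.32 to 2.89 h), which placed MGA at 7.84% of genes from the steepest fall. The log2 differences were -0.35 from 0 to 1 h (adjusted p = 0.0248, edgeR), -0.35 from 1 to 2 h (adjusted p = 0.00748) and -0.86 from 2 to 4 h (adjusted p = 8.04e-06), and the departure from a straight line missed the threshold (adjusted p = 0.937). The first step lost its call without replicate 1, 2 or 3 (adjusted p = 0.280, 0.185 and 0.155, edgeR), with log2 differences of -0.30, -0.44 and -0.31. The second lost it without replicate 2 or 3 (adjusted p = 0.119 and 0.0532, edgeR), with differences of -0.32 and -0.31. With all replicates and the replicate number as a block, both steps passed the threshold (adjusted p = 3.22e-05 and 2.97e-05, edgeR).

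MLX, the second hub protein, fell over the 4 h, and its mean at 1 h was 104% of that at 0 h. Its levels in replicates 1, 2 and 3 were 30.7, 29.2 and 31.2 CPM at 0 h, 32.2, 32.0 and 30.4 CPM at 1 h, 27.7, 22.9 and 28.3 CPM at 2 h, and 20.6, 18.5 and 18.9 CPM at 4 h. The groups at 0 and 1 h overlapped, and those at 1, 2 and 4 h were apart. The difference from 1 to 2 h was -0.26 (standard error 0.090, adjusted p = 0.0637, edgeR), and it passed the threshold with the replicate number as a block (adjusted p = 0.00704). From 2 to 4 h it was -0.44 (standard error 0.095, adjusted p = 0.00297, edgeR). The slope of -0.18 (standard error 0.027, adjusted p = 3.18e-05, edgeR) gave a half-life of 5.66 h (4.26 to 8.43 h), but with 0, 1 and 2 h only it was -0.091 (adjusted p = 0.236). The departure from a straight line missed the threshold (adjusted p = 0.389, edgeR), also with the replicate number as a block (adjusted p = 0.0545). MLX overlaps PSMC3IP on the other strand.

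**Figure D2:**
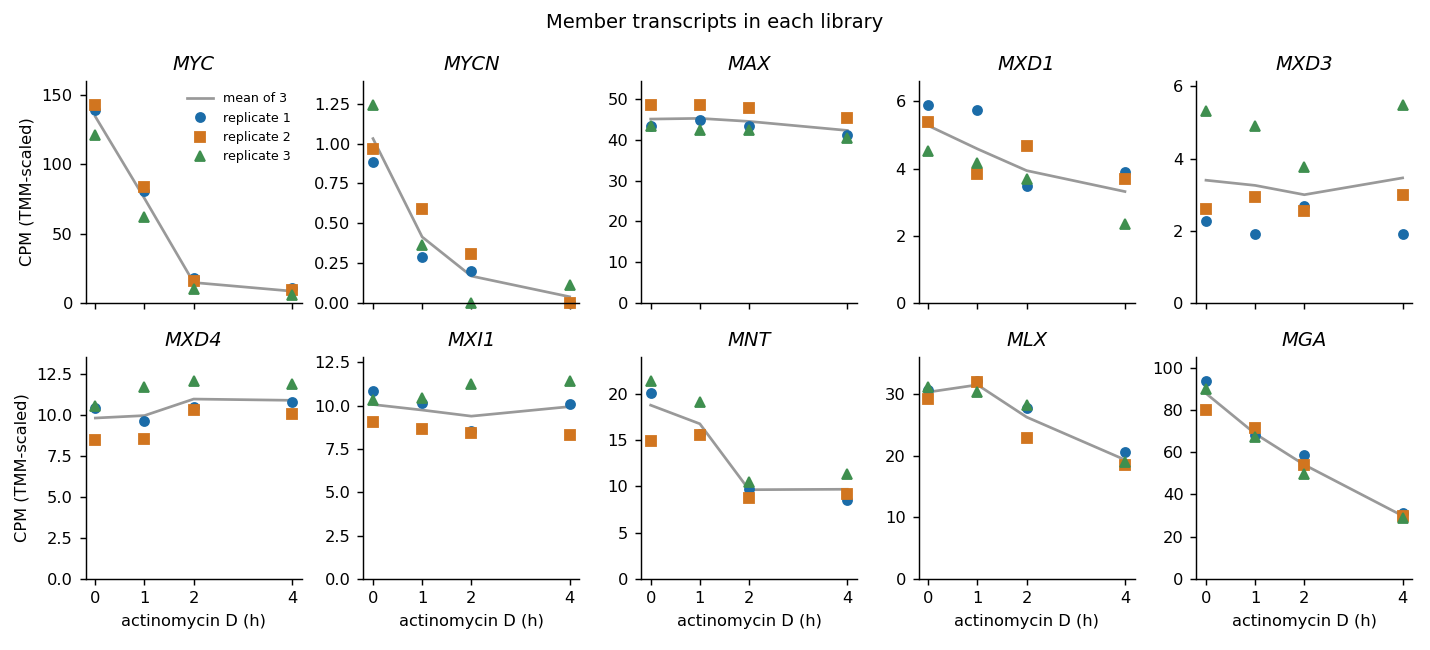
TMM-scaled CPM (y axes, each from 0) of the 10 members against hours of actinomycin D (x axes), with 1 point per library and a line through the means of 3 replicates. MYC dropped from 121 to 143 CPM at 0 h to 5.27 to 10.5 CPM at 4 h, MNT stepped down between 1 and 2 h, MGA declined steadily, and MAX stayed between 40.3 and 48.6 CPM.

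Taken step by step, members moved only downward at this threshold. From 0 to 1 h 2 of the 9 tested members were lower (MYC and MGA) and 0 higher, where 2.24% of all tested genes were lower and 0.349% higher. From 1 to 2 h 3 members were lower (MYC, MNT and MGA) and 0 higher, against 12.5% and 3.76% of all genes. From 2 to 4 h 3 were lower (MYC, MGA and MLX) and 0 higher, against 18.3% and 12% of all genes. Over the whole course, 4 h against 0 h, 5 were lower (MYC, MGA, MNT, MLX and MXD1) and 0 higher, where 31.6% of all genes were lower and 28.7% higher. A departure from a straight line was called for MYC, 1 of the 9, and for 2.7% of all genes. The falls of MGA, MNT and MLX from 0 to 4 h were 2.94-fold, 1.94-fold and 1.57-fold, with adjusted p-values of 2.59e-09, 0.000133 and 3.39e-05 (edgeR).

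**Figure D3:**
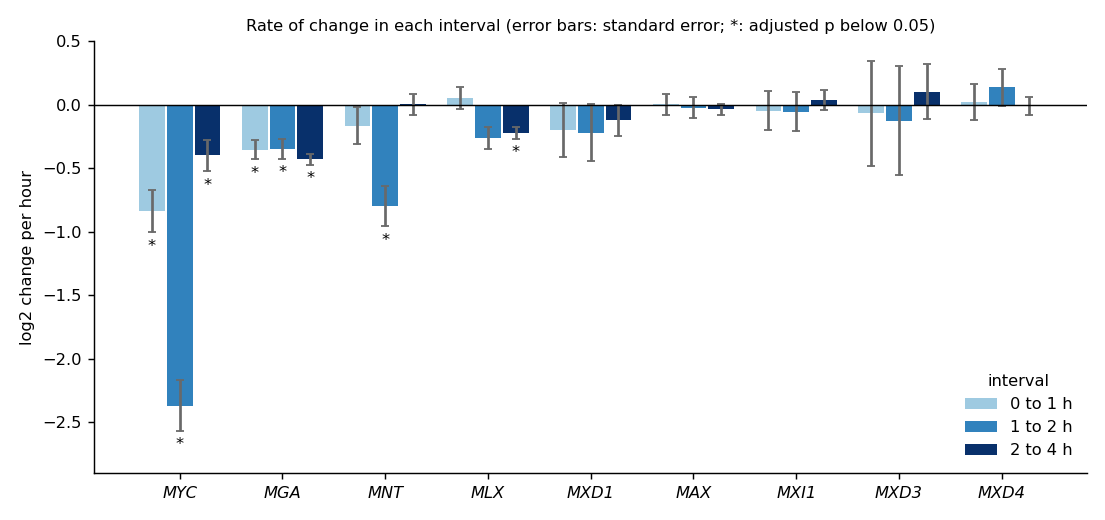
Log2 change per hour in each interval (bars from 0, with standard errors; asterisks mark an adjusted p below 0.05, edgeR) for the 9 tested members. The bar of MYC was longest from 1 to 2 h at -2.37, MNT had its 1 called bar in the same hour at -0.80, and the 3 bars of MGA were alike, between -0.43 and -0.35.

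Levels of different genes were compared per kilobase of the canonical transcript. At 0 h MYC was the most abundant member with 36.2 ± 3.09 CPM per kilobase, followed by MAX with 22.4 ± 1.51, MLX with 12.9 ± 0.429 and MGA with 7.20 ± 0.590 (SD, n = 3). MNT (3.81 ± 0.702), MXD3 (3.19 ± 1.58), MXI1 (2.90 ± 0.259) and MXD4 (2.54 ± 0.300) came next, and neighbours among these 4 overlapped. MXD1 (0.951 ± 0.125) and MYCN (0.395 ± 0.0720) were lowest and apart from the rest. At 1 h MAX and MYC overlapped (22.5 ± 1.56 and 20.3 ± 3.23). At 4 h MAX led with 21.1 ± 1.38 and MLX followed with 8.20 ± 0.475, whereas MYC was at 2.25 ± 0.741, with libraries from 1.42 to 2.83 that overlapped those of MGA (2.44 ± 0.101) and MNT (1.97 ± 0.296), and below MXD3, MXI1 and MXD4 in order of means.

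The balance between MYC and the other MAX partners does not depend on the scaling of libraries, because it is taken within each library. The counts per kilobase of the 8 partners, MYC, MYCN, MXD1, MXD3, MXD4, MXI1, MNT and MGA, were summed, and each was expressed as a share. The share of MYC in replicates 1, 2 and 3 was 63.9%, 67.9% and 57.9% at 0 h, 55.9%, 56.5% and 44.2% at 1 h, 24.0%, 22.8% and 13.7% at 2 h, and 18.5%, 16.3% and 7.85% at 4 h. The 0 h and 4 h groups were far apart, with a mean difference of -49.0 percentage points (exact permutation test, two-sided, p = 0.1, the smallest that 3 against 3 libraries allow). Without division by length the difference was -38.6 points. The shares of the MXD genes that were not called grew in turn, from 5.60% ± 2.85 to 19.5% ± 8.51 for MXD3, from 4.44% ± 0.506 to 17.4% ± 0.700 for MXD4 and from 5.07% ± 0.396 to 17.7% ± 1.73 for MXI1 (SD, n = 3). The share of MNT went from 6.67% ± 1.22 to 12.1% ± 0.712, and that of MXD1 from 1.66% ± 0.191 to 3.77% ± 1.23. MGA held 12.6% ± 0.896 at 0 h, 22.8% ± 1.66 at 2 h and 15.2% ± 1.95 at 4 h, and its 0 h and 4 h groups overlapped (exact permutation test, p = 0.3). The other 7 partners had groups that did not overlap, each with an exact permutation p of 0.1 (0.114 adjusted over the 8 partners), which cannot pass the threshold in this design. The share of all genes whose 0 h and 4 h groups lie apart was not counted. Of all tested genes 31.6% were called lower and 28.7% higher at 4 h than at 0 h (edgeR). Shares of a whole are bound to move against each other.

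**Figure D4:**
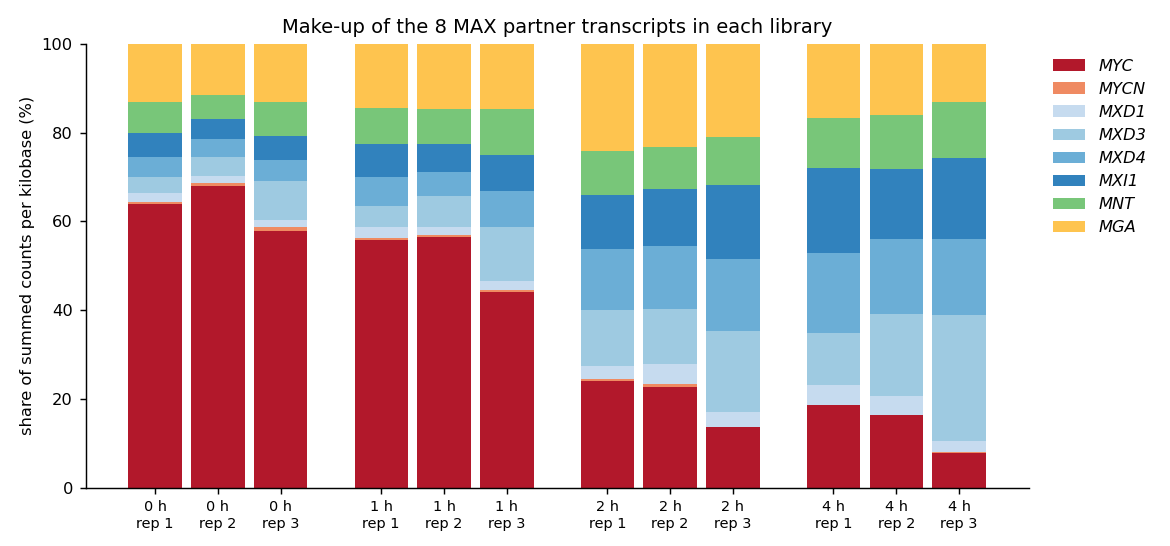
Make-up of the 8 MAX partner transcripts in each of the 12 libraries (x axis), as a share of their summed counts per kilobase in percent (y axis). The red MYC segment shrank from 57.9% to 67.9% at 0 h to 7.85% to 18.5% at 4 h, and the blue MXD segments filled most of the difference.

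The summed partners were 2.55 ± 0.192 times as abundant as MAX per kilobase at 0 h, 1.72 ± 0.0650 times at 1 h, 0.880 ± 0.0759 times at 2 h and 0.774 ± 0.114 times at 4 h (SD, n = 3). In the 3 libraries at 0 h the ratio was 2.71, 2.34 and 2.61, and at 4 h it was 0.747, 0.675 and 0.898. These are ratios of transcripts, and proteins were not measured.

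Each member was also set against MAX within each library, as the log2 ratio of counts. Between 0 and 4 h this ratio changed by -3.96 for MYC, a 15.6-fold fall, by -1.46 for MGA, -0.85 for MNT, -0.59 for MXD1 and -0.56 for MLX, with no overlap between groups (exact permutation test, p = 0.1 each, 0.15 adjusted over 9 members). The share of all genes with groups apart in this ratio was not counted. MYCN changed by -3.68 from few counts. The ratio changed by 0.25 for MXD4, 0.094 for MXD3 and 0.067 for MXI1, with overlapping groups (exact permutation test without pairing, p = 0.4, 0.9 and 0.8). Within replicates 1, 2 and 3, the ratio of MXD4 went from -2.05 to -1.93, from -2.51 to -2.17 and from -2.03 to -1.76, upward in all 3. Against GAPDH plus ACTB in place of MAX, the mean ratio changed by -0.39 for MXD4, -0.55 for MXD3 and -0.57 for MXI1. Half-lives depend on the scaling: with GAPDH plus ACTB the slopes were -1.24 for MYC, -0.53 for MGA, -0.40 for MNT, -0.32 for MLX and -0.30 for MXD1, each steeper than with TMM. The 5 members that fell did so under all 4 scalings tried, and the number of falling members was 5 with TMM or DESeq2 size factors, 6 with library totals and 7 with GAPDH plus ACTB. Of all 12032 tested genes 3859 fell with TMM, 3856 with size factors, 4704 with library totals and 7729 with GAPDH plus ACTB.

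**Figure D5:**
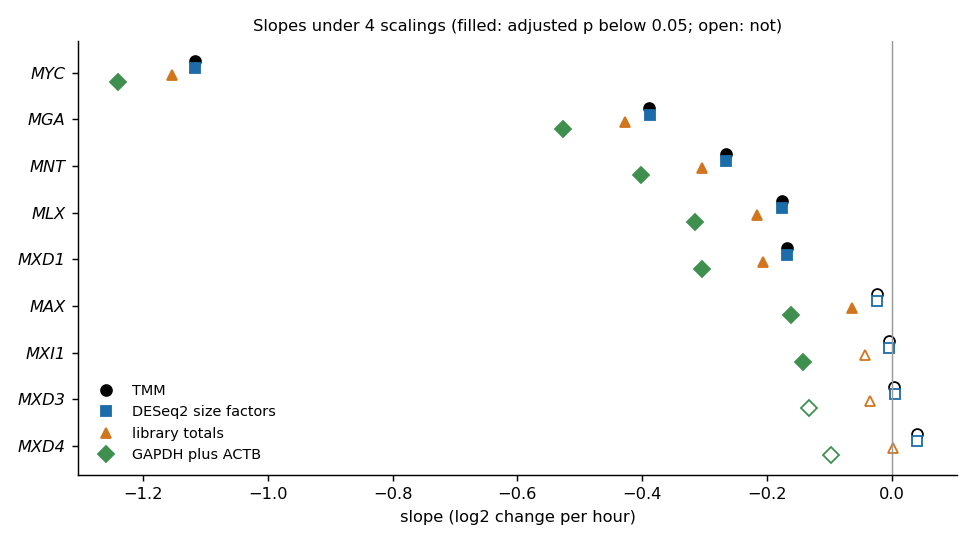
Slopes of the 9 tested members in log2 per hour (x axis) under 4 scalings of the libraries, filled where the adjusted p was below 0.05 (edgeR). Every slope shifted to the left with GAPDH plus ACTB, MYC, MGA, MNT, MLX and MXD1 were filled under each scaling, and MAX was filled with library totals and with GAPDH plus ACTB only.

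The genes with time profiles most like each falling member were named by the root mean square difference of log2 CPM over the 12 libraries, each gene centred on its 0 h mean, among 12031 others. For MYC they were IER5, TIPARP, SGK1, ZNF627 and CITED2, with differences of 0.288 to 0.301. For MGA they were CEP350, KIAA0922, FZD1, POGK and EP300 (0.0952 to 0.112). For MNT they were ZKSCAN8, POGZ, RNF169, RAI1 and PRR14L (0.111 to 0.180). For MLX they were BAIAP2, TNKS1BP1, AGAP1, RNF26 and VPRBP (0.0577 to 0.0913). For MXD1 they were DDX58, BIRC2, SNHG17, YRDC and CCDC88C (0.132 to 0.163). The profiles share their libraries and their scaling.

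The 3 other genes of the network split. MYCL, the third MYC paralogue, fell with a slope of -0.38 (adjusted p = 0.00959, edgeR) from a mean of 13.5 counts, and not without replicate 1 (slope -0.30, adjusted p = 0.0675). MLXIP and MLXIPL, the Mondo partners of MLX also known as MondoA and ChREBP, rose relative to the reference with slopes of 0.058 and 0.26 (adjusted p = 0.0184 and 0.0207, edgeR). Both rises were lost with library totals (adjusted p = 0.446 and 0.0566) and without replicate 2 (0.0693 and 0.115), and that of MLXIP also without replicate 3 (0.0655). With GAPDH plus ACTB MLXIP fell (slope -0.081, adjusted p = 0.000795) and MLXIPL was not called (slope 0.12, adjusted p = 0.305). Of 7 tested bHLH-zipper factors that read other or the same E-boxes, TFAP4 (-0.45) and USF1 (-0.13) fell and TFE3 (0.15), SREBF2 (0.12) and USF2 (0.089) rose, with a median slope of 0.089. With the replicate block TFEC also fell (slope -0.097, adjusted p = 0.0011, edgeR) and SREBF1 also rose (slope 0.11, adjusted p = 7.59e-05, edgeR).

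Among 14 corepressor genes of the SIN3 and NCOR complexes, through which MXD and MNT act, 7 fell and 6 rose, with a median slope of -0.019. Over all tested genes 32.1% fell and 30.7% rose, and the counts of the lists are read beside these shares. SIN3A, the scaffold bound by MXD proteins, fell with a slope of -0.60 (standard error 0.044), from 109 ± 3.32 to 21.2 ± 4.65 CPM between 0 and 4 h (SD, n = 3), whereas its paralogue SIN3B had a slope of 0.11 and went from 61.7 ± 1.47 to 85.9 ± 2.56 CPM. The histone-tail readers ING1 (-0.77) and ING2 (-0.55) also fell steeply. The deacetylase HDAC1 (0.13) and the histone chaperone RBBP7 (0.086) rose. Of 12 coactivators and partners of MYC, 1 fell, 6 rose and 5 were not called, with a median of 0.041. The acetyltransferase KAT5 (TIP60) fell with a slope of -0.34 (adjusted p = 2.4e-06, edgeR), and the acetyltransferase KAT2A (GCN5) and the helicases RUVBL2 and RUVBL1 rose with slopes of 0.19, 0.12 and 0.097.

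Of 11 genes for the turnover of MYC protein, 6 fell and 3 rose, with a median slope of -0.19, where 32.1% of all genes fell and 30.7% rose. The kinases AURKA and GSK3B and the ubiquitin ligase subunit FBXO28 fell most (-0.41, -0.36 and -0.30). Among those that rose were the ubiquitin ligases STUB1 (0.082) and HUWE1 (0.077). HUWE1 lost its call with library totals (adjusted p = 0.305), without replicate 2 (0.314) and without replicate 3 (0.135). Of 12 proteins known to bind MYC or other AU-rich mRNA, 4 fell and 5 rose, with a median of 0.014. All 3 ZFP36 family genes, whose proteins promote decay of AU-rich mRNA, fell: ZFP36L2 by 0.71 log2 per hour, ZFP36 by 0.61 and ZFP36L1 by 0.36. IGF2BP1, which shields the MYC coding region, fell by 0.17 log2 per hour, from 288 ± 15.1 to 184 ± 10.3 CPM. YBX1 (0.15), HNRNPD (0.043), ELAVL1 (0.041) and TIAL1 (0.038) were among those that rose, and the last 3 lost their call with library totals (adjusted p = 0.819, 0.927 and 0.956). ELAVL1 and HNRNPD also lost it without replicate 1 (0.0657 and 0.0542), ELAVL1 without replicate 2 (0.0783), HNRNPD without replicate 3 (0.0555) and TIAL1 without replicate 1 or 3 (0.117 and 0.218). Every rise in these lists is relative to TMM: with GAPDH plus ACTB, 0 genes of the E-box, corepressor, coactivator, turnover and mRNA-binding lists rose, and 3 of 7, 11 of 14, 9 of 12, 9 of 11 and 10 of 12 fell. Under this scaling 7729 of all 12032 tested genes fell and 112 rose. STUB1, HNRNPD, ELAVL1 and TIAL1 turned to falling under it (slopes -0.056, -0.095, -0.097 and -0.100; highest adjusted p 0.0463, edgeR), as the median of all genes shifted to -0.13.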

How the data were processed

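Raw counts of reads per gene symbol were deposited by the authors for 12 libraries (3 per time point, 9147018 to 11194705 counts each). The submitters' processing notes name FastQC, STAR and hg19. The paper's methods describe, for reads of this kit in general, Salmon on an Ensembl GRCh38 transcriptome, which differs from these notes, and do not name these libraries. Which counter, annotation and strand setting made these counts is not given in the sources used here, so reads shared with overlapping or similar genes cannot be told apart. Columns were matched to samples by their labels, with 0 unmatched.

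Fits were made in R 4.3.3 with edgeR 4.0.16, using symbols that averaged 10 counts or more (12032 of 26334; 7397 had no count), TMM factors, glmQLFit and glmQLFTest over all 12 libraries, with time as hours (slope) or as 4 groups (steps), and a test of 2 further coefficients for departure from a straight line. Calls were made at an adjusted p below 0.05 (Benjamini-Hochberg). The F statistic gave the standard errors. Scripts were tested on simulated data. Log2 CPM for profile likeness used a prior count of 2, and ratios had 0.5 added to both counts. Shares and ratios were tested by exact permutation (scipy 1.17.1, numpy 2.4.6). The alternatives were library totals, DESeq2 1.42.0 size factors and Wald test, GAPDH plus ACTB, other filters, fewer times, each replicate left out and a replicate block.

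Replicates differed by more than sampling noise in all 12 pairs (chi-square per degree of freedom 3.20 to 8.65), and the labels call them biological. Libraries of the same replicate number, as the labels give it, deviated together from their group means (r from 0.300 to 0.612 over 18 pairs, mean 0.431), so the numbers pair the libraries. The mean over 36 pairs of different numbers was -0.212. Deviations were taken from the mean of each group, so this value largely follows from the first and adds no separate evidence.

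Members and gene lists were chosen with earlier results of these data known. Named genes were the members, up to 3 steepest falls and rises per list, genes behind counts of 5 or fewer, the 5 nearest profiles, reference genes, JUN and EGR1. UTR letters and lengths came from GENCODE 44 canonical transcripts (10819 of 12032 tested genes). Strata of similar UTR length and the counts of lists under other scalings were added after values were seen. No protein table was used here, and some listed genes are not reported here.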

Additional observations from a re-analysis of the deposited data

How the results depend on the processing

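Of 654 values recomputed under an alternative, 571 kept their direction and side of the threshold where they had a test, or, for counts of calls, shares and ratios, moved by less than a set tolerance (counts such as 7 falling members against 5 were within it; shares and ratios had to stay within 1 SD of the replicates). The slopes of MYC, MGA and MNT did so under all alternatives. Where a value moved, the cause was not tested. The settings that leave out a replicate or a time also hold fewer libraries. With library totals the slopes were -0.063 for MAX (adjusted p = 0.00822) and -0.035 for MXD3, and from 2 to 4 h the log2 differences were -0.0087 for MXI1 and -0.077 for MNT; from 0 to 4 h MXD3 was at -0.13. With GAPDH plus ACTB the slopes were -0.16 for MAX, -0.13 for MXD3, -0.097 for MXD4 and -0.14 for MXI1. Its differences were -0.11 for MAX, -0.090 for MXD4 and -0.063 for MLX from 0 to 1 h, -0.084 for MXD3, -0.23 for MXI1 and -0.29 for MNT from 2 to 4 h, and -0.53 for MXD3 and -0.40 for MXD4 from 0 to 4 h. Of the 12060 genes tested with 0, 1 and 2 h only, 2215 fell, 3 members among them. The slopes there were 0.0016 for MAX, -0.20 for MXD1, -0.083 for MXD3 and -0.091 for MLX. With 1, 2 and 4 h only they were -0.16 for MXD1 and 0.0077 for MXI1. MNT from 2 to 4 h was at -0.0039 with size factors, -0.0080 without a filter and -0.0037 with DESeq2's Wald test. By that test 288 of 12032 genes were lower from 0 to 1 h, 1 member among them (MYC had an adjusted p of 0.0525). Against GAPDH plus ACTB in place of MAX, the log2 ratio changed by -4.60 for MYC, -2.10 for MGA, -1.49 for MNT, -1.23 for MXD1, -1.20 for MLX, -0.55 for MXD3, -0.39 for MXD4 and -0.57 for MXI1. The MYC share without division by length differed by -38.6 points.

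With replicate numbers as a block, the departure of MNT from a straight line had an adjusted p of 0.00093, so that 2 members were called, and MLX was lower from 1 to 2 h (log2 -0.26, adjusted p = 0.00704). The block changed no other call of a member. It moved the calls over all genes from 269 lower and 42 higher to 1261 and 744 (0 to 1 h), from 1504 and 452 to 2485 and 2048 (1 to 2 h), from 2199 and 1449 to 3046 and 3050 (2 to 4 h) and from 325 to 2073 (departure).

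Leaving out 1 replicate each, slopes ranged from -0.0067 to 0.011 for MXD3 and from -0.036 to 0.0076 for MXI1. From 0 to 1 h the log2 differences ranged from -0.015 to 0.030 for MAX, from -0.16 to 0.0026 for MXD3 and from -0.045 to 0.089 for MXD4, and 0 to 1 members were lower. From 1 to 2 h they ranged from -0.47 to 0.055 for MXD1, from -0.32 to 0.099 for MXD3 and from -0.16 to 0.041 for MXI1. From 2 to 4 h they ranged from -0.083 to 0.41 for MXD3, from -0.036 to 0.0021 for MXD4 and from -0.073 to 0.092 for MNT. From 0 to 4 h they ranged from -0.043 to 0.073 for MXD3 and from -0.14 to 0.027 for MXI1. The departure of MYC had adjusted p-values from 0.000311 to 0.361, with 0 to 1 members called. Over all genes, without replicate 1, 2 or 3, 31, 1 and 157 genes were lower from 0 to 1 h and 12, 0 and 175 departed from a line.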

Other observations

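Genes that MYC is known to control changed at unlike rates, relative to the reference, once transcription was blocked. Of 23 tested genes known as activated by MYC, 6 fell, 10 rose and 7 were not called, with a median slope of 0.028 log2 per hour, where 32.1% of all tested genes fell and 30.7% rose. The steepest falls were those of 3 ribosome biogenesis genes: RRS1 had a slope of -0.52 and went from 46.8 ± 4.25 to 11.3 ± 1.29 CPM between 0 and 4 h, POLR1B had -0.37 and NOP16 had -0.35 (SD, n = 3). The steepest rises were those of TERT, the telomerase subunit (0.24), SRM, a polyamine synthesis enzyme (0.15), and NME1, a nucleotide kinase (0.12). TERT went from 7.22 ± 1.32 to 14.9 ± 2.08 CPM, with an adjusted p of 4.04e-05 (edgeR). With GAPDH plus ACTB 18 of the 23 fell and 1 rose, with library totals 9 fell and 6 rose, and with the replicate block 7 fell and 14 rose. Of all 12032 tested genes 7729 fell and 112 rose with GAPDH plus ACTB. With library totals 4704 fell and 2242 rose, and with the block 4182 fell and 4356 rose. NCL and NPM1, nucleolar proteins, had slopes of 0.023 and 0.031 (adjusted p = 0.273 and 0.233, edgeR). Both rose with the replicate block (adjusted p = 0.00864 and 0.00494) and fell with GAPDH plus ACTB (slopes -0.11 and -0.11, adjusted p = 8.65e-05 and 0.0024).

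Of 5 tested genes known as repressed by MYC, CDKN1B, which encodes the cell cycle inhibitor p27, fell by 0.61 log2 per hour (standard error 0.037, adjusted p = 2.24e-09, edgeR), from 39.9 ± 7.49 to 7.46 ± 0.548 CPM (SD, n = 3). GADD45A, a stress response gene, fell with a slope of -0.21 (adjusted p = 0.00408, edgeR), and NDRG2 rose with 0.18 (adjusted p = 0.00456, edgeR; 0.578 with GAPDH plus ACTB). CDKN1A, which encodes p21, had a slope of -0.0019 (adjusted p = 0.967, edgeR), and fell with GAPDH plus ACTB (slope -0.14, adjusted p = 0.00032). NDRG1 was not called (adjusted p = 0.216) but rose with the replicate block (adjusted p = 0.0053).

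Of the Ewing sarcoma markers, the transcription factor genes NKX2-2, NR0B1 and FLI1 fell with slopes of -0.65, -0.53 and -0.50, and STEAP1, LIPI and PRKCB were not called (slopes -0.0035, 0.021 and 0.090). FLI1 counts can hold reads of the fusion gene as well. PRKCB rose with the replicate block (adjusted p = 1.39e-06, edgeR). With GAPDH plus ACTB 5 of the 6 tested markers fell, STEAP1 and LIPI among them (slopes -0.14 and -0.12, adjusted p = 0.000142 and 0.00694, edgeR). Of all 12032 tested genes 7729 fell under that scaling.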
